A study of Saccharomyces cerevisiae with 2 samples.

Results

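The genes described here are the 10 that make the main phospholipids of budding yeast or control their synthesis: INO1, CHO1, CHO2, OPI3, PSD1, PSD2, PIS1, OPI1, INO2 and INO4. They were picked by gene name, and all 10 were found among the 6592 named genes of the table. Values are ribosome footprints, the pieces of mRNA covered by translating ribosomes, from 2 cultures of SK1, a strain background that sporulates efficiently. Both cultures were pregrown in YEPD and then BYTA and were collected 4 hours after transfer to sporulation medium. One was wild type (WT), and the other carried a deletion of GIM3, which encodes a subunit of the prefoldin cochaperone. Each genotype is represented by 1 library, so no test between genotypes was possible, and every difference is one between these 2 libraries.

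Phosphatidic acid is activated to CDP-diacylglycerol, from which 2 branches lead to the major phospholipids. In one branch Pis1 joins CDP-diacylglycerol to inositol, which the cell makes through Ino1, and phosphatidylinositol results. In the other, Cho1 makes phosphatidylserine, Psd1 and Psd2 decarboxylate it to phosphatidylethanolamine, and Cho2 and Opi3 methylate that lipid to phosphatidylcholine. Ino2 and Ino4 form a heterodimer that activates many of these genes, and Opi1 represses them unless phosphatidic acid and the membrane protein Scs2 hold it at the endoplasmic reticulum. Sporulating cells use phospholipids to build new prospore membranes around their nuclei.

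Reads counted in genes numbered 40433177 for WT and 27864644 for gim3 deletion. Levels are in RPM, footprints scaled to a library total of 1000000, and folds are ratios of RPM, each with an exact 95% interval for counting error alone. A gene was compared where its mean over both libraries was at least 10 RPM, and it was counted as different where its log2 ratio after adding 1 RPM passed 2-fold. GIM3 stood at 34.9 RPM in WT and at 0.108 RPM, from 3 reads, in the library labelled gim3 deletion. The 12 listed genes of meiotic entry and recombination were abundant in both libraries (297 to 4120 RPM in WT and 310 to 6196 RPM in gim3 deletion), and all 12 were within 2-fold. Haploid and mating genes were scarce, with 7 genes summing to 36.5 RPM in WT and 59.2 RPM in gim3 deletion and the pheromone receptor gene STE2 at 0.495 and 1.00 RPM. The 15 listed middle meiotic genes were NDT80 and genes that depend on Ndt80. They summed to 1851 RPM in WT and 22204 RPM in gim3 deletion, and all 14 compared were at least 2-fold higher in the latter. Taking these 15 genes out of the library totals moved the median log2 ratio of all compared genes from -0.20 to -0.18. How far the difference in middle meiotic footprints otherwise enters the values below was not tested.

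Of the 10 genes, 9 were compared, and INO2 was below the level filter at a mean of 9.16 RPM. INO1, OPI3 and OPI1 had footprints reduced by 2-fold or more in gim3 deletion. Another 6 genes lay within 2-fold, and 0 were past 2-fold in the upward direction. Among all 4916 compared genes, 8.50% were at least 2-fold lower and 6.35% at least 2-fold higher. The median log2 ratio of the 9 genes was -0.45, and that of all compared genes was -0.20 in the deposited scaling. Relative to the median gene 5 of the 9 were lower and 4 were higher, so the group was mixed. Together the 10 genes took 4498 RPM in WT and 2135 RPM in gim3 deletion, a 2.11-fold difference carried largely by INO1. Without INO1 the other 9 summed to 1003 RPM and 751 RPM, a 1.34-fold difference.

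**Figure D1:**
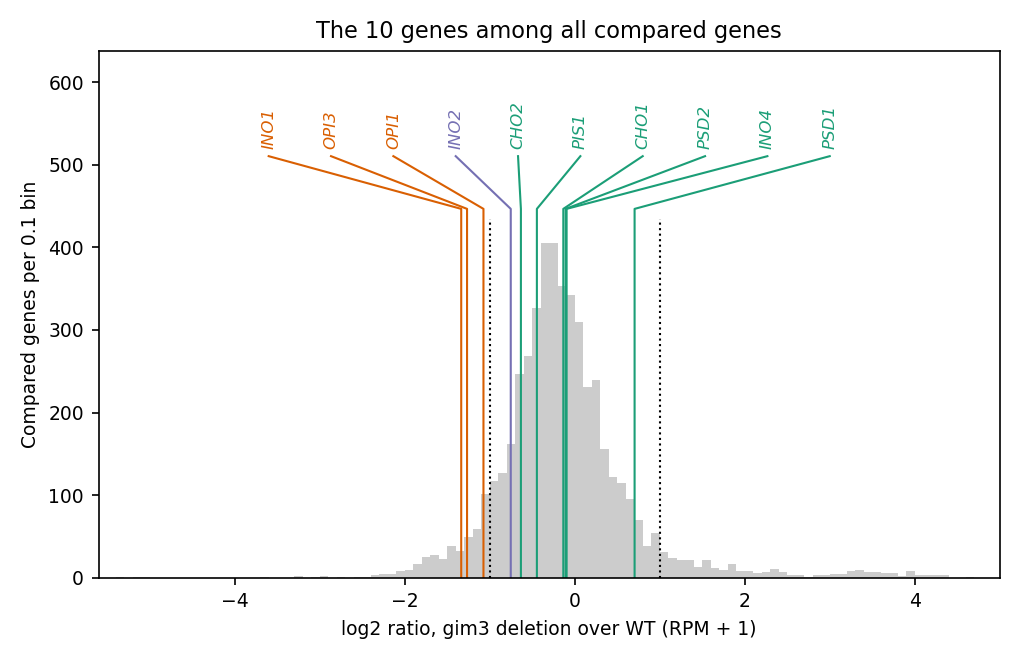
Log2 ratios (gim3 deletion over WT, with 1 RPM added) of all 4916 compared genes as a grey histogram in bins of 0.1, with a line at each of the 10 phospholipid genes. Dotted lines mark 2-fold, orange marks the 3 genes past it, green the 6 within it and purple INO2, which was below the level filter. INO1, OPI3 and OPI1 lie in the lower tail, and PSD1 is the only one of the 10 above 0.

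INO1 encodes inositol-3-phosphate synthase, the enzyme that commits glucose 6-phosphate to inositol. It stood at 3495 RPM in WT (141312 reads) and 1385 RPM in gim3 deletion (38583 reads), 2.52-fold lower (2.50 to 2.55). It was the lowest of the 10 in log2 ratio, at -1.34, and 3.99% of compared genes had a lower one. It nevertheless had the most footprints per kb of the 10 in each library. INO1 took 77.7% of the footprints of the 10 genes in WT and 64.8% in gim3 deletion.

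PIS1, the phosphatidylinositol synthase that uses this inositol, was at 33.3 RPM in WT and 24.2 RPM in gim3 deletion. That is a 1.38-fold difference (1.25 to 1.51) and a log2 ratio of -0.45, within the 2-fold rule. INO1 thus differed more than PIS1, which acts later in the same branch. The fold of INO1 was 1.83 times further down than that of PIS1 (1.67 to 2.01), a comparison that does not depend on how the libraries are scaled.

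In the branch to phosphatidylcholine the enzymes differed in both directions. CHO1, the phosphatidylserine synthase, was at 240 RPM in WT and 219 RPM in gim3 deletion, 1.10-fold lower (1.06 to 1.13). Its log2 ratio of -0.13 turns to 0.07 when ratios are centred on the median gene, and 55.1% of compared genes had a lower one. CHO1 was therefore near the middle of all genes in these libraries.

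PSD1 and PSD2 encode the mitochondrial and the endosomal phosphatidylserine decarboxylase. PSD1 was at 98.4 RPM in WT and 161 RPM in gim3 deletion, 1.64-fold higher (1.57 to 1.71). It was the only one of the 10 with more RPM in the gim3 deletion library, and its log2 ratio of 0.70 was exceeded by 9.62% of compared genes, though it was within the 2-fold rule. PSD2 was at 18.7 RPM and 17.3 RPM, and the interval of its fold included 1 (0.823 to 1.04). Its log2 ratio of -0.11 becomes 0.10 once centred. The fold of PSD1 was 1.77 times that of PSD2 (1.56 to 2.00), free of the scaling of the libraries. Per kb of coding sequence PSD1 had 11.9 times the footprints of PSD2 in WT and 21.1 times in gim3 deletion.

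CHO2 and OPI3 encode the methyltransferases that act in turn on phosphatidylethanolamine, Cho2 in the first step and Opi3 in the later ones. CHO2 went from 190 RPM in WT to 122 RPM in gim3 deletion, 1.56-fold lower (1.49 to 1.62), with a log2 ratio of -0.63 that 20.0% of compared genes lay below. OPI3 had 290 RPM in WT and 120 RPM in gim3 deletion, 2.42-fold lower (2.33 to 2.51), and 4.60% of compared genes were lower. Both methyltransferases thus had fewer footprints in the gim3 deletion library, and OPI3 passed 2-fold. The fold of OPI3 was 1.55 times further down than that of CHO2 (1.47 to 1.64). OPI3 and INO1 were the closest pair among those past 2-fold, with folds that differed by a factor of 1.04 (1.003 to 1.087). Between consecutive enzymes of the branch the contrast was widest for PSD1 and CHO2, whose folds differed by a factor of 2.54 (2.40 to 2.70).

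Of the 3 regulators, OPI1 was past 2-fold, INO4 was within it and INO2 was below the level filter. OPI1, the repressor, was at 69.4 RPM in WT and 32.4 RPM in gim3 deletion, 2.14-fold lower (1.98 to 2.31). Its log2 ratio of -1.07 lay just past the 2-fold rule and becomes -0.87, inside it, when ratios are centred on the median gene. INO2, which encodes the subunit of the activator that carries its activation domains, had 11.7 RPM from 475 reads in WT and 6.57 RPM from 183 reads in gim3 deletion. That is a 1.79-fold difference (1.51 to 2.13) in a gene below the level filter, so it has no call. INO4, the partner subunit, was at 51.4 RPM and 48.1 RPM, with an interval of the fold from 0.872 to 1.002. Its log2 ratio of -0.10 becomes 0.11 once centred.

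The activator's subunits therefore differed from each other. The fold of INO2 was 1.67 times further down than that of INO4 (1.39 to 2.02). Per kb of coding sequence INO4 had 8.79 times the footprints of INO2 in WT and 14.7 times in gim3 deletion. The folds of OPI1 and INO2 could not be separated at this depth, since their ratio was 0.837 (0.692 to 1.01). OPI1 was further down than INO4 by a factor of 2.00 (1.80 to 2.22). These pairs were among 11 picked by role, with the values already known, and their intervals hold counting error only.

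**Figure D2:**
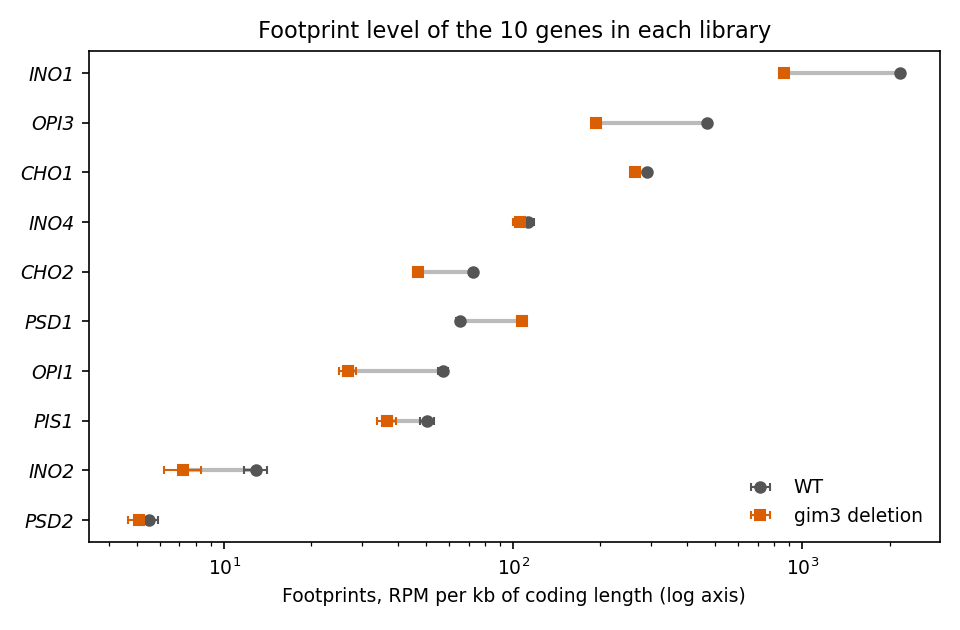
Footprints of the 10 genes in RPM per kb of coding length (log axis) in the WT library (grey circles) and the gim3 deletion library (orange squares), ordered by the WT level. Whiskers are exact Poisson 95% intervals, which cover counting error only, and INO1, OPI3, OPI1 and INO2 show the widest gaps towards lower values while PSD1 moves the other way.

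Levels of different genes were compared per kb of coding sequence, with lengths from the R64 RefSeq annotation. INO1 was the highest of the 10 with 2182 RPM per kb in WT, rank 57 of 4876 compared genes with a known length, and 864 RPM per kb in gim3 deletion, rank 210. OPI3 followed in WT with 467 RPM per kb, then CHO1 with 289 and INO4 with 113. CHO2 had 72.7 RPM per kb there, PSD1 65.5, OPI1 57.1 and PIS1 50.3, close to the median of all these genes at 53.0. INO2 with 12.8 and PSD2 with 5.49 were the lowest, and 98.6% of the 4876 compared genes with a known length lay above PSD2. The 10 genes thus spread widely in footprint density, a rank that leaves out genes below the level filter.

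The order changed in the middle of the range. In the gim3 deletion library CHO1 at 263 RPM per kb was above OPI3 at 193, and PSD1 at 107 came ahead of CHO2 at 46.7. PIS1 at 36.5 was above OPI1 at 26.7, the reverse of WT. PSD1 and INO4, at 107 and 105 RPM per kb, had overlapping intervals and could not be ordered in that library. All other neighbours in the order, in both libraries, were separated by more than counting error.

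The chromosomal neighbours of the 10 genes were examined for differences that extend beyond them. None of the 20 adjacent protein-coding genes overlaps one of the 10 in the R64 annotation. Of the 19 that were compared, 1 was at least 2-fold higher, 2 were at least 2-fold lower and 16 were within 2-fold. Over all compared genes 6.35% were at least 2-fold higher, 8.50% at least 2-fold lower and 85.2% within 2-fold, so the neighbours were near the general rate. INO1 lies between VPS35, at 179 RPM in WT and 181 RPM in gim3 deletion, and SNA3, at 187 and 261 RPM, so neither neighbour was lower with it. The neighbours of OPI1, AIM17 and APM2, had log2 ratios of 0.12 and -0.26. Those of OPI3 were lower as well, NPA3 at -0.89 and MOG1 at -0.67. Beside PSD1, APC1, which encodes the largest subunit of the anaphase-promoting complex, was 4.10-fold higher, and FMP41 on the other side was 1.54-fold lower. ALE2, next to PIS1, was 2.90-fold lower, and YOL107W, next to INO4, was 2.13-fold lower.

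Beyond the 10 genes, 8 lists of the wider pathway held 58 genes, of which 55 were compared. In gim3 deletion 5 of these were past 2-fold downward, 4 were past it upward and 46 lay within it. At 9.09% the share of lower genes was close to the 8.50% of all compared genes, of which 6.35% were at least 2-fold higher. The median log2 ratio of the 55 genes was -0.33, beside -0.20 for all compared genes.

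The main transporters of choline and of inositol, HNM1 and ITR1, were lower, as INO1 and OPI3 were. HNM1 had the lowest log2 ratio of the 58 genes, at 237 RPM in WT and 47.1 RPM in gim3 deletion, 5.04-fold lower (4.75 to 5.34). ITR1 went from 172 RPM in WT to 66.7 RPM in gim3 deletion, 2.58-fold lower (2.45 to 2.72). Like INO1, CHO1, CHO2 and OPI3, both are among the genes known in growing cells to respond to inositol, which are not listed in full here. CHO1 and CHO2 were nevertheless within 2-fold, at log2 ratios of -0.13 and -0.63. Elsewhere in the pathway PSD1 and EKI1 had higher footprints in gim3 deletion, at 0.70 and 0.98, also within 2-fold. A shared cause was not tested. ITR2, the minor inositol transporter, was highest in the inositol list with a log2 ratio of 0.41. Reads between the ITR paralogs may have been divided uncertainly. The inositol monophosphatase genes INM1 and INM2 had log2 ratios of -0.14, which turns positive once centred, and 0.32.

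CDS1, the CDP-diacylglycerol synthase at the head of both branches, was at 77.2 RPM in WT and 29.2 RPM in gim3 deletion, 2.65-fold lower (2.45 to 2.86). It was the lowest of 12 compared genes of phosphatidic acid metabolism, and the other end of that list was ALE1, a lysophospholipid acyltransferase, at 2.08-fold higher (2.02 to 2.15). The remaining 10 were within 2-fold, including PAH1, the phosphatidic acid phosphatase, at -0.25, and DGK1, the diacylglycerol kinase, at -0.88. SCT1 was below the level filter.

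In the choline and ethanolamine list EPT1, a transferase that joins these head groups to diacylglycerol, was 2.16-fold lower (1.99 to 2.35). Its log2 ratio of -1.08 falls inside the rule, at -0.88, once centred. EKI1, the ethanolamine kinase, was highest with a ratio of 2.00 and a log2 ratio of 0.98, which passes 2-fold, at 1.19, once centred. The choline kinase CKI1 at -0.33 and PCT1, which acts after it, at 0.30 were within 2-fold. Of the 7 genes in this list, 2 were lower and 5 within 2-fold, beside 8.50% and 85.2% of all compared genes.

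Of 7 compared genes in the phospholipase list, 2 were at least 2-fold higher, 1 was at least 2-fold lower and 4 were within 2-fold, with a list median log2 ratio of 0.74. The shares over all compared genes were 6.35% higher, 8.50% lower and 85.2% within 2-fold. SPO14, the phospholipase D needed for sporulation, was highest of all 58 genes among those compared, at 224 RPM in WT and 781 RPM in gim3 deletion, 3.48-fold higher (3.40 to 3.57). GDE1, a glycerophosphocholine phosphodiesterase, was 2.65-fold higher (2.59 to 2.72), from 219 to 581 RPM. PLB2, a phospholipase B, was 2.95-fold lower (2.60 to 3.34), and its relative PLB1 had a log2 ratio of -0.67. SPO1, a meiotic phospholipase B homologue, had 639 RPM in WT and 829 RPM in gim3 deletion, a log2 ratio of 0.38. PLB3 and GIT1 were below the level filter.

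PDR17, a phosphatidylinositol transfer protein that also acts in the transport of phosphatidylserine to Psd2, was 2.54-fold higher (2.44 to 2.65) and led the lipid transfer list. PDR16, its relative, was lowest in that list at -0.88. SEC14, the essential phosphatidylinositol and phosphatidylcholine transfer protein, had a log2 ratio of 0.89, which passes 2-fold, at 1.09, once centred. Genes of cardiolipin synthesis ran from CRD1, the cardiolipin synthase, at -0.72, to CLD1, a cardiolipin lipase, at 0.73, and 0 of 6 passed 2-fold. The phosphatidylinositol kinases and Sac1 also had 0 of 7 past 2-fold, from STT4 at -0.83 to VPS34 at 0.15. Among 5 partners of the regulatory circuit 0 passed 2-fold. UME6, which encodes a repressor of early meiotic genes that also acts at INO1, was lowest at -0.85. SCS2, the anchor of Opi1 at the endoplasmic reticulum, was at 427 RPM in WT and 381 RPM in gim3 deletion, and SCS22, its paralog, was highest at 0.09. Of all compared genes 85.2% lay within 2-fold, so a count of 0 in lists of 5 to 7 genes does not set those lists apart.

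**Figure D3:**
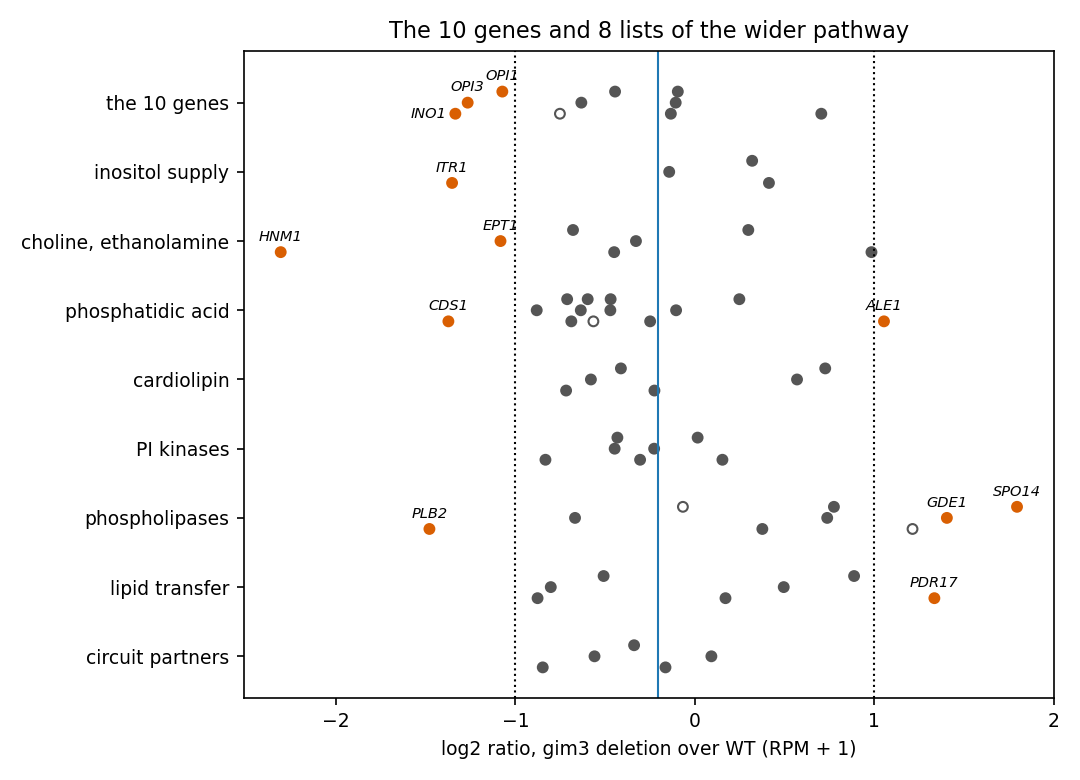
Log2 ratios (gim3 deletion over WT, with 1 RPM added) of the 10 genes in the top row and of 58 genes in 8 wider lists below. Orange points with names passed 2-fold (dotted lines), open points were below the level filter, and the blue line is the median of all compared genes at -0.20, with HNM1 at -2.31 the lowest point and SPO14 at 1.80 the highest.

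Scaling mattered for genes near the rule and near 0. Centring on the median gene left INO1 at -1.13 and OPI3 at -1.06, both still past 2-fold, while 5.21% of all compared genes were then at least 2-fold lower and 8.30% at least 2-fold higher. PSD1 had a log2 ratio of 0.91 under that scaling, still within the rule. With a pseudocount of 5 RPM the log2 ratio of OPI1 was -0.99.

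**Figure D4:**
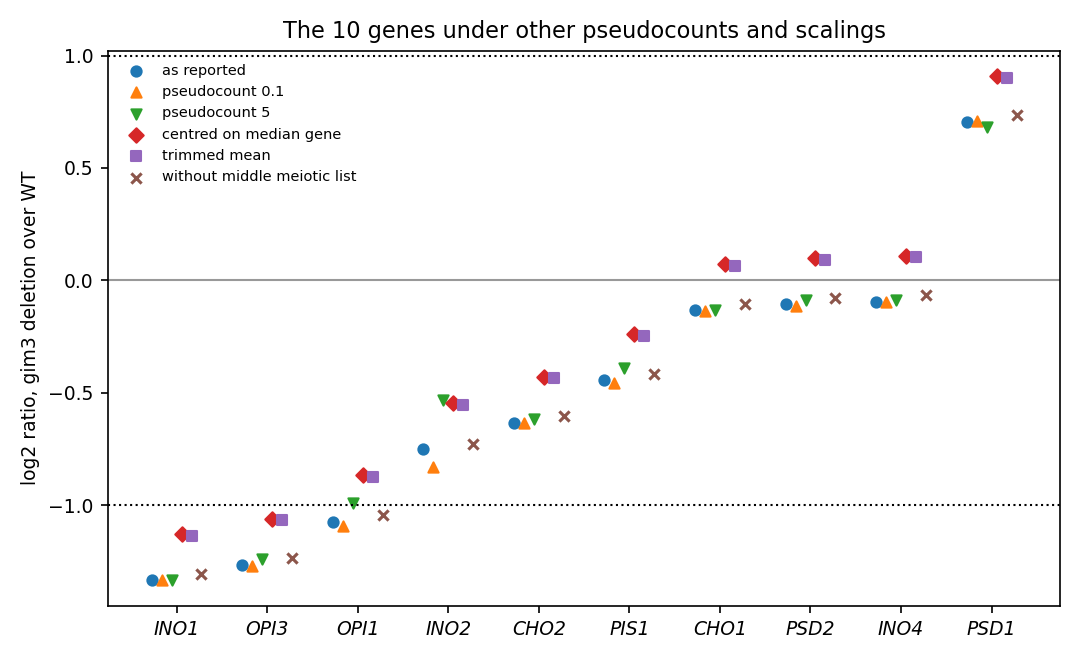
Log2 ratio (gim3 deletion over WT) of each of the 10 genes as reported, with pseudocounts of 0.1 and 5 RPM, and under 3 other scalings. Dotted lines mark 2-fold. INO1 and OPI3 stay below the lower line throughout, OPI1 crosses it, and CHO1, PSD2 and INO4 change sign under centring and the trimmed mean.

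A footprint total combines mRNA level and translation, and these libraries do not separate them. Nor can fewer cells that express a gene be told apart from less RNA per cell in such bulk samples.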

How the data were processed

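The deposited data are 1 table by the authors, with genes in rows and 2 footprint libraries in columns. Each column sums to 1000000, so the values as deposited are RPM, not divided by gene length. All values (100%, within 0.001 of a read) were whole multiples of the smallest, 0.0247 RPM in WT and 0.0359 RPM in gim3 deletion, from which reads were recovered. Bowtie2, STAR and SAMtools are named per the submitters' processing notes. The sources used here do not give their versions, the genome build, the annotation or the handling of reads with several matches. The 86 lines without a gene name (0.121% and 0.124% of reads) were left out of comparisons.

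Log2 ratios were taken after adding 1 RPM. Fold intervals are exact (Clopper-Pearson), and intervals of the ratio of 2 folds are exact conditional intervals. PCR duplicates cannot be recognised, so intervals cover counting error only. A count model needs replicates and was not run on the recovered reads. Gene lengths and neighbours came from the R64 RefSeq table, whose match to the authors' annotation is unknown, so no coordinates are given. All 10 genes, every wider-list gene past 2-fold and each list's extremes were to be named. Further genes named were chosen after their values were seen. The genes and lists were chosen with earlier results of these data known. Alternatives changed the pseudocount, filter, threshold and scaling. SciPy 1.17.1 and pandas 2.3.3 were run under Python 3.11.15, and figures were drawn with matplotlib 3.10.9.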

Additional observations from a re-analysis of the deposited data

How the results depend on the processing

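The count of 3 of the 10 genes past 2-fold was 2 under centring, the trimmed mean (30% of ratios and 5% of levels cut at each end) and a pseudocount of 5 RPM, where OPI1 dropped out. It stayed at 3 with a pseudocount of 0.1 RPM, no filter, a filter at 50 RPM and totals without the middle meiotic list. At 1.5-fold it was 5 (4 lower, 1 higher, against 22.6% and 12.0% of all compared genes), and at 3-fold 0. The median log2 ratio of -0.45 was -0.24 centred, -0.25 with the trimmed mean and -0.85 with a filter at 50 RPM, which left 6 genes. Beside these, the median of all compared genes was -0.20 as reported, 0 centred, -0.007 with the trimmed mean and -0.16 with that filter. In the wider lists 9 of 55 genes passed 2-fold, 26 passed 1.5-fold (17 lower, 9 higher) and 2 passed 3-fold (1 each way), against 34.5% and 6.08% of all compared genes. At 2-fold, centring gave 4 lower and 6 higher in place of 5 and 4, and across all compared genes it gave 5.21% lower and 8.30% higher. Of the 10 genes, CHO1, PSD2 and INO4 changed sign under centring and the trimmed mean. The wider lists were added to these alternatives after the data were seen. No paired analysis was possible because each genotype has 1 library. Without replicates, culture-to-culture variation is unknown, and depth limits INO2 most.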
